A study of Mus musculus with 9 samples.

Results

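Fc receptors are the genes described here: the receptors that bind the constant (Fc) part of antibodies, as measured in mouse retinal cells captured on magnetic beads with an antibody. The members are 7 gene symbols, chosen for their function as Fc gamma receptors, their common chain and relatives: Fcer1g, Fcgr1, Fcgr2b, Fcgr3, Fcgr4, Fcrls and Fcgrt. Of these 7 symbols, 6 were found in the table of the captured cells, which lists 16367 genes, and the same 6 in the table of cultured cells, which lists 17035 genes. Fcrls is not listed under that symbol in either table. Both tables list Fcrl2, a symbol for which the RefSeq gene table used here has no entry. For Fcrls that gene table gives the synonym Fcrh2, a name close to Fcrl2. Whether the Fcrl2 reads are those of Fcrls was not settled, so Fcrl2 is given separately and is not counted as a member.

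The study compared cells prepared as Müller glia, the radial glia of the retina, between ocular hypertension (OHT) and sham animals, and also sequenced untreated primary Müller glia. There were 9 RNA-seq libraries in 3 groups of 3, and all are labelled wild type (WT). OHT animals had an injection of silicone oil (1.2 µL) into the anterior chamber of both eyes, whereas sham animals had the corneal incision without oil. Neural retinas, pooled by 4 for a sample, were dissociated with papain, depleted of dead cells and captured with an anti-GLAST (ACSA-1) antibody carrying the dye APC, followed by anti-APC microbeads on a magnetic column. GLAST is the glutamate transporter encoded by Slc1a3, which Müller glia and astrocytes both carry. The protocol in the labels names no reagent that blocks Fc receptors before the antibody. Strain and age of the sham and OHT animals, and the time between oil and sampling, are not stated in the labels. The cultures came from C57BL/6J pups 8 to 10 days old, were grown in serum-containing medium and passaged, and were never exposed to the capture antibody as far as the labels say. The labels do not say whether the 3 libraries of a group came from separate animals or cultures beyond the pooling of retinas, so p-values measure the spread between these libraries.

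Fc gamma receptors sit on phagocytes, in the retina mainly microglia and macrophages, and bind IgG. Fcgr1 (high affinity), Fcgr3 and Fcgr4 are the activating receptors of the mouse, and each needs the common gamma chain, encoded by Fcer1g, both to reach the cell surface and to signal through Syk family kinases. Fcgr2b is the inhibitory receptor, which recruits the phosphatase SHIP1 (Inpp5d) and damps the activating ones. Fcgrt is of another kind: it encodes the heavy chain of the neonatal Fc receptor, which pairs with beta-2 microglobulin (B2m), works inside endosomes to protect IgG and albumin from degradation, and is made by many cell types. Fcrls is an Fc receptor-like molecule that is used as a marker of microglia.

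Fcgr2b and Fcgr3 are close relatives in sequence, which bears on whether their reads can be told apart. A GENCODE M21 coding transcript of each shares with the other a stretch of 243 bases, all of it coding sequence, that differs at 1 position. It is printed 5′ to 3′ as in the transcript, with the differing base in capitals, and the change from Fcgr2b to Fcgr3 is T130G, counted from the first base printed. In Fcgr2b it spans exon 3 (chr1:170967980-170968081) and exon 4 (chr1:170966560-170966700), and in Fcgr3 exon 3 (chr1:171057691-171057792) and exon 4 (chr1:171054053-171054193), all on the minus strand of GRCm38.
Fcgr2b: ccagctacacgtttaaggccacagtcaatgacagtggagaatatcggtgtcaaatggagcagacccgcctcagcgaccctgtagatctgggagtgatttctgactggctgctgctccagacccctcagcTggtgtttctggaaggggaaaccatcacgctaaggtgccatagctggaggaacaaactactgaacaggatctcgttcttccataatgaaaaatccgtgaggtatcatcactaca
Fcgr3: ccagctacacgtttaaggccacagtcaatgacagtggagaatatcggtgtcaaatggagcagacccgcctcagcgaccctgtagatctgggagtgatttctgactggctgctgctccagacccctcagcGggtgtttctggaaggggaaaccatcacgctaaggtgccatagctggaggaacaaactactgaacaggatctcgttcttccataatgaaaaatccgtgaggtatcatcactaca
The longest identical run was 129 bases, shorter than the 150-base reads. Among all windows of 31 bases in the longest Fcgr3 transcript 17.7% also occurred in a transcript of Fcgr2b, against 7.38% of windows of 75 bases, 3.53% of windows of 100 bases and none of 150 bases. The other pairs of members shared no window of 31 bases. The sources used here do not say how reads that match both genes were counted. A part of the Fcgr2b and Fcgr3 counts is therefore uncertain, and its size was not measured. Misplaced reads would weigh more on Fcgr2b, whose sham mean was 384 ppm against 1959 ppm for Fcgr3.

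The promoters of the common chain and of the 3 activating receptors that need it are shown, to set their sequences side by side. Each is the 250 bases before the RefSeq start in GRCm38.p6, and capitals mark GAGGAA or its reverse complement TTCCTC, the core of sites for PU.1, a transcription factor of the myeloid lineage. Fcer1g lies at chr1:171234350-171234599 (minus strand), Fcgr1 at chr3:96293970-96294219 (minus strand), Fcgr3 at chr1:171059404-171059653 (minus strand) and Fcgr4 at chr1:171018676-171018925 (plus strand).
Fcer1g: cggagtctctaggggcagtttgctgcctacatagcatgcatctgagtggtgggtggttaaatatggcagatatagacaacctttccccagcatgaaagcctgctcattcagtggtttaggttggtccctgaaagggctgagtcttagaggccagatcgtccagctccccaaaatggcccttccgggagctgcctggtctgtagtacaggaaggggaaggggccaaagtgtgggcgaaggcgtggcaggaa
Fcgr1: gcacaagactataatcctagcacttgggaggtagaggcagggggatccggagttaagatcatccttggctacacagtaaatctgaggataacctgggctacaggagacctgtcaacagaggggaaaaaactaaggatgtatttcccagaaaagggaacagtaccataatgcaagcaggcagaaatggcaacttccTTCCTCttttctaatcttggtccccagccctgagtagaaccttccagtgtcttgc
Fcgr3: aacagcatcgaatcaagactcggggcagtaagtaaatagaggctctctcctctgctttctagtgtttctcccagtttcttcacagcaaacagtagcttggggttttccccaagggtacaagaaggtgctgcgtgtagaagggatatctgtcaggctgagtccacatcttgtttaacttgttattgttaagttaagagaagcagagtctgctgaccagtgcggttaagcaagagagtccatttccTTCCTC
Fcgr4: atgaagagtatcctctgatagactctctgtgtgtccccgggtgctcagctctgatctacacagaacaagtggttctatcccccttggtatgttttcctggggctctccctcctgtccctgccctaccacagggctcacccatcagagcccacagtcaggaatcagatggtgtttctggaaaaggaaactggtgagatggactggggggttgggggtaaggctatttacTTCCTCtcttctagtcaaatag
In GENCODE M21 the whole Fcgr3 window lies within the gene, since another transcript starts further upstream, and 27 of its bases are in an exon of that transcript. In Fcer1g 16 bases of the window, in Fcgr4 6 and in Fcgr1 0 are in an exon. The match lay 55 bases before the start in Fcgr1, 6 bases before it in Fcgr3 and 22 bases before it in Fcgr4. Fcrls had 1 match as well, 144 bases before its start, and the promoters of Fcer1g, Fcgr2b and Fcgrt had 0. A link between these matches and the differences between OHT and sham was not tested. Over both strands the motif occurred in 23.3% of 32851 promoters of this length. Fcgr1 also had 1 match to TTCNNNGAA, the element bound by STAT factors, found in 7.02% of promoters, and Fcgr4 had 1 match to an interferon regulatory factor element (GAAA, 2 bases of any kind, GAAA), found in 2.98%. These matches are letters in a window, the motifs were picked with the sequences in view, and no binding was measured.

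Depth recovered from the deposited values was 37822145 to 44472124 reads in sham, 47135569 to 53592052 in OHT and 66309309 to 76745389 in culture libraries. Microglia and macrophage markers outweighed Müller glia markers in every sorted library, although the label is Müller glia. The 12 microglia and macrophage markers summed to 24202 to 41227 reads per 1000000 of the library total (ppm) in sham and 36582 to 44086 ppm in OHT, and to 99.1 to 146 ppm in culture. The 12 Müller glia markers summed to 3351 to 8377, 1791 to 3951 and 254 to 420 ppm in the same order, and the 10 rod markers to 2511 to 24091 ppm in sham and 835 to 3245 ppm in OHT. In these 3 lists the sham and OHT ranges overlapped. The 8 endothelial markers summed to 228 to 480 ppm in sham and 110 to 208 ppm in OHT, without overlap, and the 4 astrocyte markers to 18.1 to 1283 and 34.1 to 98.7 ppm. The part of such differences in the Fc receptor values was not tested, apart from the microglia and macrophage list used as a covariate. In RNA from many cells, fewer cells of a type and less RNA per cell cannot be told apart.

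Markers of other cells that carry Fc receptors were much lower than those of microglia and macrophages. Of 8 neutrophil markers 3 were listed in the sorted table. S100a8 did not exceed 0.806 ppm in any sorted library, Cxcr2 was at 0 in all 3 sham libraries, and nearly all of the list's 152 to 269 ppm was Csf3r. Of 6 mast cell markers 3 were listed, with Cpa3 at 0 in 4 of the 6 sorted libraries by count and at most 0.299 ppm in the others. The other listed ones were Kit and Hdc, which reached 8.14 and 5.06 ppm in sham replicate 3, and the mast cell list summed to 1.56, 10.2 and 13.2 ppm in sham and 0.525, 2.89 and 0.0849 ppm in OHT. The 8 border macrophage and monocyte markers summed to 427 to 572 ppm in sham and 292 to 979 ppm in OHT, led by Mrc1, Pf4 and F13a1. The 5 dendritic cell markers summed to 257 to 868 ppm in sham and 415 to 721 ppm in OHT, nearly all of it Siglech. The T and NK cell markers summed to at most 7.35 ppm in sham and 2.16 ppm in OHT.

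The sorted cells carried far more Fc gamma receptor RNA than the cultures, and Fcgrt was the exception. These levels are in ppm and carry no test, since the tables were normalized separately. Fcgr3 was at 2321, 1729 and 1829 ppm in sham replicates 1 to 3, 3609, 2357 and 3661 ppm in OHT and 2.38, 2.43 and 4.12 ppm in culture. Its mean in sham was 658-fold that in culture and its mean in OHT 1078-fold. Fcer1g was at 1793, 705 and 1177 ppm in sham, 3028, 2041 and 3576 ppm in OHT and 3.36, 1.97 and 5.46 ppm in culture, a 341-fold and 801-fold difference of means. For both genes the lowest sorted library, sham replicate 2, stood far above the highest culture, replicate 3.

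**Figure D1:**
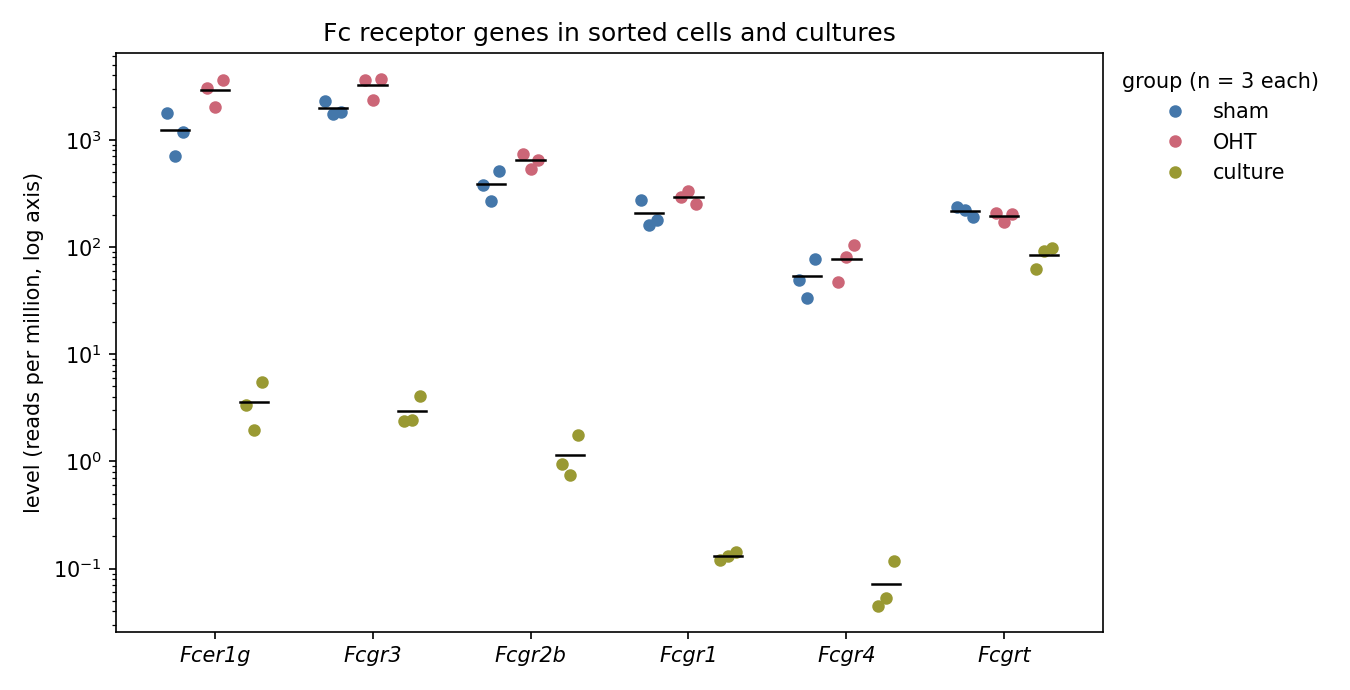
Level of the 6 listed Fc receptor genes in each of the 9 libraries, in reads per 1000000 of the library total (ppm) on a log axis, with sham, OHT and culture libraries as separate points and horizontal bars at the group means. The sorted libraries lie far above the cultures for every gene but Fcgrt, whose culture libraries at 62.0 to 98.7 ppm come near the sorted ones at 171 to 238 ppm.

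Fcgr2b, the inhibitory receptor, was at 377, 271 and 506 ppm in sham, 742, 536 and 646 ppm in OHT and 0.950, 0.740 and 1.76 ppm in culture. Fcgr1 was at 276, 160 and 180 ppm in sham and 290, 335 and 252 ppm in OHT. In the cultures Fcgr1 rested on 8, 10 and 11 reads, and Fcgr4 on 3, 4 and 9 reads. For Fcgr4 these gave 0.0452, 0.0529 and 0.117 ppm, and the exact 95% binomial intervals ran from 0.00933 to 0.132, from 0.0144 to 0.135 and from 0.0536 to 0.223 ppm. The reads were amplified and carry no molecular identifiers, so these intervals cover counting error only. Fcgr4 in the sorted libraries was at 48.8, 33.7 and 77.1 ppm in sham and 46.8, 81.4 and 104 ppm in OHT, the lowest of the listed members.

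Fcgrt, the neonatal Fc receptor, was at 238, 222 and 190 ppm in sham, 208, 171 and 203 ppm in OHT, and 62.0, 92.0 and 98.7 ppm in culture. The sham mean was 2.57-fold and the OHT mean 2.31-fold that of the cultures. Slc1a3, the capture antigen, differed by 14.1-fold and 6.18-fold between the same groups. B2m, the partner chain of Fcgrt, differed by 10.6-fold and 18.4-fold. By mean normalised count Fcgrt ranked 606th of the sorted table's 16367 genes and 2510th of the culture table's 17035 genes, while Fcgr3 went from rank 38 to rank 10512 and Fcer1g from rank 46 to rank 10223.

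Compared with each other per kb of the longest coding transcript, Fcer1g and Fcgr3 led and the other members followed at a distance. In sham Fcer1g was at 1793 ± 799 ppm per kb (SD, n = 3) and Fcgr3 at 1455 ± 235, which did not differ beyond their spread. In OHT Fcer1g was at 4219 ± 1139 and Fcgr3 at 2382 ± 548 ppm per kb. The next in order in sham were Fcgrt at 123 ± 14.0, Fcgr2b at 108 ± 33.2, Fcgr1 at 79.4 ± 23.9 and Fcgr4 at 42.4 ± 17.5 ppm per kb. Neighbours among these 4, by mean ± SD, had overlapping ranges. The place of Fcgr2b depends on the transcript: with its shortest coding transcript of 1084 bases in place of 3544 it stood at 355 ppm per kb in sham. In culture the order was different, with Fcgrt first at 47.6 ppm per kb and Fcer1g next at 5.27 ppm per kb. B2m stood above all of them in each group, at 3826, 6656 and 362 ppm per kb in sham, OHT and culture.

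Between OHT and sham, all 6 listed members had a higher mean in OHT, but none passed the test. All 6 passed the filter on low values, and limma on log2(value + 1) gave an adjusted p of at least 0.332 for each. Over all genes of the sorted libraries, 0 of 14403 tested (0%) had an adjusted limma p under 0.05, while 1680 had an unadjusted p under 0.05. Of the members 3 of 6 had an unadjusted limma p under 0.05, all with the higher value in OHT, against 5.37% of all genes in that direction and 6.3% in the other. The same 3, Fcer1g, Fcgr2b and Fcgr3, had every OHT value above every sham value, which held for 9.26% of all genes, and the reverse order, seen in no member, for 9.18%. Of the 12 microglia and macrophage markers, 4 were higher at that unadjusted p and 6 were higher without overlap, so the members did not stand apart from that list. The median difference was 0.87 on the log2 scale over the 6 members and -0.12 over all genes, and with library totals in place of the deposited scaling the medians were 0.62 and -0.36, with Fcgrt lower in OHT.

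Fcer1g, the common chain, had the largest difference of the members on the deposited scaling. Its normalised counts were 70077, 27724 and 50066 in sham and 199223, 90044 and 135093 in OHT. All 3 OHT libraries lay above all 3 sham libraries, and the lowest OHT value, that of replicate 2, was close to the highest sham value, that of replicate 1. On the log2 scale the difference was 1.55 (SE 0.45, 95% interval 0.56 to 2.53, limma adjusted p = 0.332). Among all genes tested 3.74% had a larger log2 difference. With the mean level of the microglia and macrophage list as a covariate the difference was 0.88, with an adjusted p of 0.999, and once GC content and transcript length were corrected for it was 1.02. It was not the largest under either: Fcgr4 was at 0.99 with the covariate, and Fcgr2b at 1.29 and Fcgr1 at 1.12 after the correction. The median over all genes moved as well, from -0.12 to -0.05 with the covariate and to 0.17 after the correction.

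**Figure D2:**
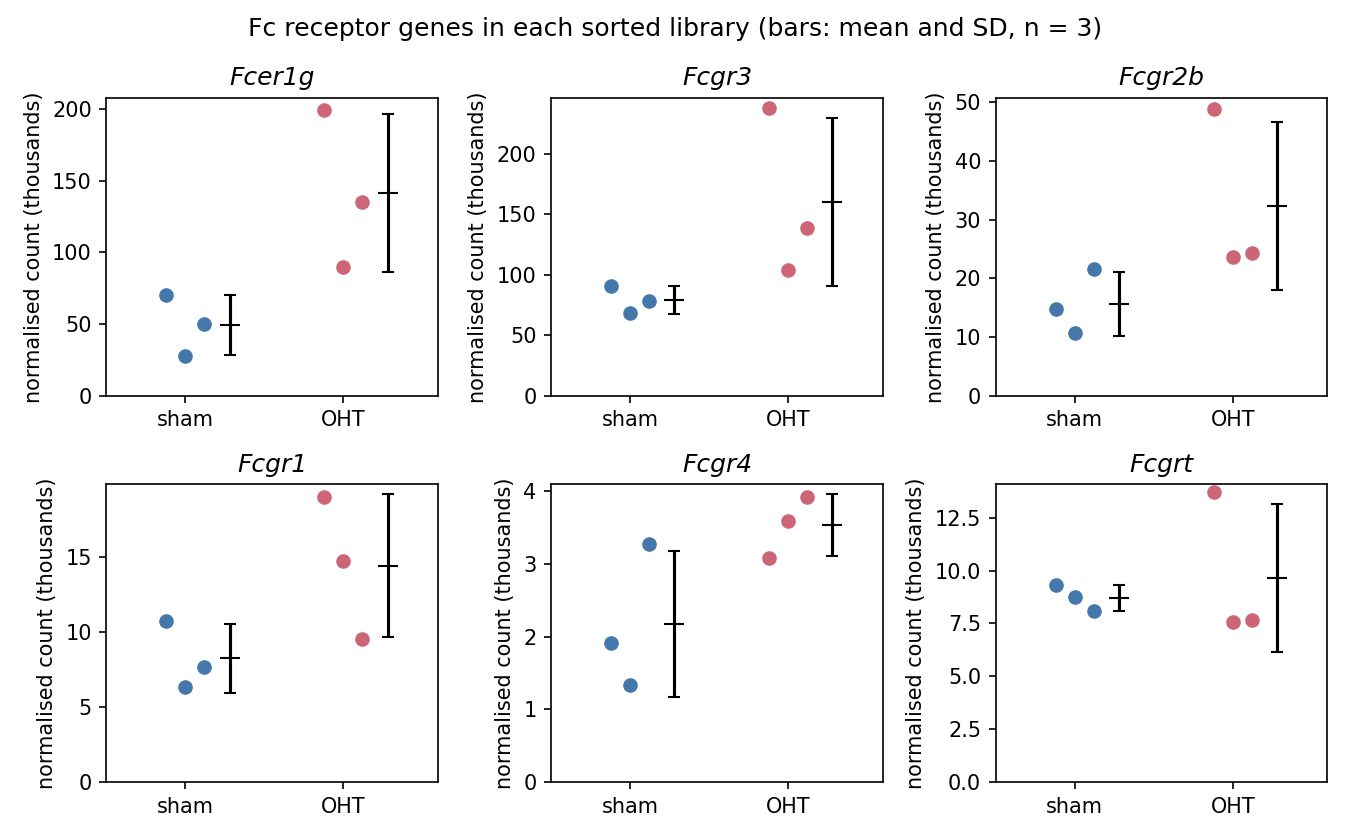
Normalised counts of the 6 listed Fc receptor genes in the 3 sham and 3 OHT libraries, 1 panel per gene, with points for libraries and lines at the right of each group for its mean and SD (n = 3). The groups are separate for Fcer1g, Fcgr3 and Fcgr2b and overlap for Fcgr1, Fcgr4 and Fcgrt.

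Among the activating receptors, Fcgr3 had normalised counts of 90674, 68003 and 77824 in sham and 237452, 103983 and 138300 in OHT. The groups did not overlap, and on the deposited scaling OHT replicate 1 was far above the other OHT libraries. Its place depends on that scaling: in ppm it was at 3609, against 3661 in OHT replicate 3. The groups were barely apart in ppm, with OHT replicate 2 at 2357 and sham replicate 1 at 2321. On the log2 scale of the normalised counts the difference was 0.94 (SE 0.41, 95% interval 0.04 to 1.85, limma adjusted p = 0.417). Fcgr1 had 10783, 6311 and 7671 in sham and 19064, 14762 and 9518 in OHT. Here OHT replicate 3 lay below sham replicate 1. Its log2 difference was 0.79 (SE 0.36, limma adjusted p = 0.432), and 0.20 with the microglia and macrophage list as a covariate.

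Fcgr4 had normalised counts of 1907, 1327 and 3280 in sham and 3078, 3591 and 3925 in OHT. The sham library of replicate 3 stood at the level of the OHT libraries. On the log2 scale the difference was 0.79 (SE 0.40, limma adjusted p = 0.461). The monocyte marker Ccr2 was also uneven among these libraries, with 1.40, 1.88 and 36.2 ppm in sham and 9.09, 35.0 and 33.7 ppm in OHT. The 3 libraries with over 30 ppm of Ccr2 were those with the most Fcgr4 in ppm, and the part of monocytes in the Fcgr4 values was not tested. Ly6c2, another monocyte marker, did not follow this order and stayed between 0.0560 and 5.85 ppm. Plac8, of the same list, did not follow it either, at 11.0 ppm in OHT replicate 1 and 1.42 ppm in OHT replicate 3.

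Fcgr2b, the inhibitory receptor, had normalised counts of 14735, 10643 and 21522 in sham and 48826, 23640 and 24392 in OHT. The groups did not overlap, though sham replicate 3 came within reach of OHT replicates 2 and 3. On the log2 scale the difference was 1.02 (SE 0.40, 95% interval 0.15 to 1.89, limma adjusted p = 0.382). With the microglia and macrophage list as a covariate it was 0.65.

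Fcgrt had normalised counts of 9313, 8747 and 8076 in sham and 13701, 7544 and 7680 in OHT. On this scaling only OHT replicate 1 exceeded the sham libraries, and the other OHT libraries lay below all of them. In ppm this order did not hold. There OHT replicate 1, at 208, lay below sham replicates 1 and 2, at 238 and 222. OHT replicate 3, at 203 ppm, lay above sham replicate 3, at 190. On the log2 scale of the normalised counts the difference was 0.09 (SE 0.34, 95% interval -0.65 to 0.83, limma adjusted p = 0.917), and -0.19 without OHT replicate 1. The interval includes both a lower and a higher level in OHT. B2m, by comparison, had 173388, 76569 and 148420 in sham and 534625, 203577 and 167458 in OHT, a log2 difference of 1.07 (SE 0.53, limma adjusted p = 0.461). Per kb, B2m exceeded Fcgrt by 38.3-fold, 18.0-fold and 37.8-fold in sham and by 80.3-fold, 55.5-fold and 44.9-fold in OHT, so the groups did not overlap in this ratio.

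**Figure D3:**
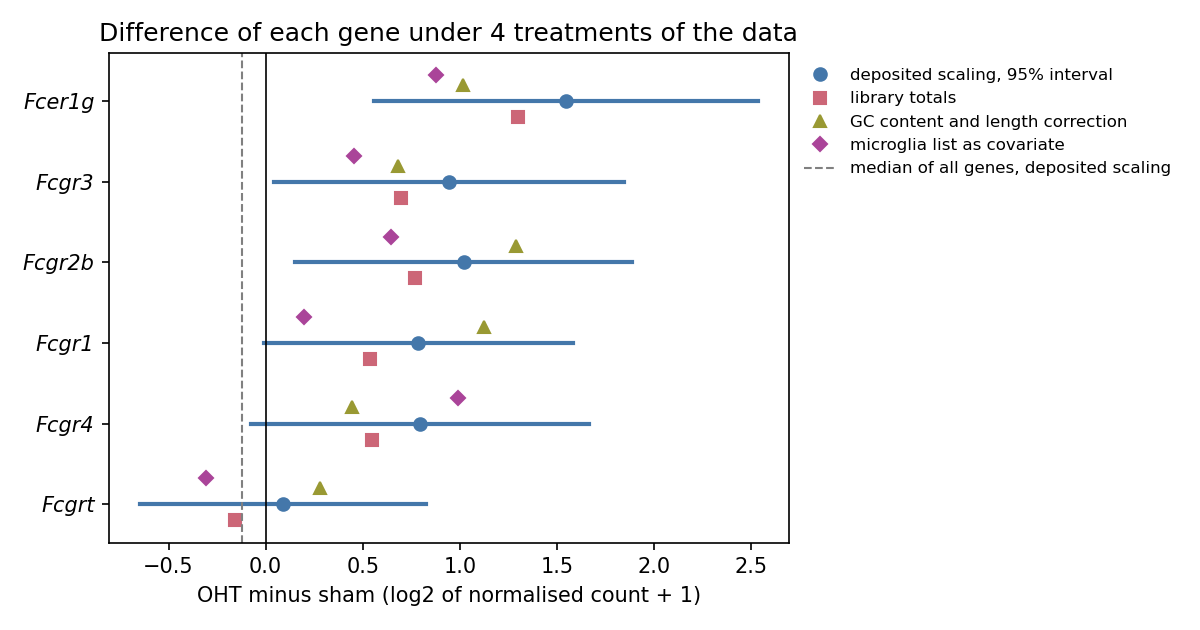
Difference of OHT minus sham on the log2 scale for each listed Fc receptor gene, with the 95% limma interval as a line, and the same difference with library totals, after correction for GC content and length, and with the microglia and macrophage list as a covariate. The dashed line is the median of all genes on the deposited scaling only. Every setting drawn puts Fcer1g, Fcgr1, Fcgr2b, Fcgr3 and Fcgr4 above 0, while Fcgrt lies on both sides of 0, from -0.31 to 0.28.

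The balance of activating and inhibitory receptor reads, not corrected for GC content or length, differed between sham and OHT by less than its spread. Its level was lower in culture. The log2 ratio of Fcgr1, Fcgr3 and Fcgr4 reads together to Fcgr2b reads was 2.81, 2.83 and 2.04 in sham, 2.41, 2.37 and 2.64 in OHT, and 1.42, 1.82 and 1.32 in culture. The OHT mean differed from the sham mean by -0.09 and the groups overlapped. The sign of this difference rests on single libraries: it was 0.036 without sham replicate 1 and 0.046 without sham replicate 2. Such a ratio does not depend on how the libraries were scaled, but it can move with a correction for GC content and length. After that correction the log2 difference between OHT and sham was 1.29 for Fcgr2b, 1.12 for Fcgr1, 0.68 for Fcgr3 and 0.45 for Fcgr4. The ratio was not computed from corrected values.

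Fcgr3 made up most of the reads of the 4 Fc gamma receptors in every group, with 75.4% ± 4.30 in sham, 75.6% ± 3.84 in OHT and 69.2% ± 2.84 in culture (SD, n = 3 each). Fcgr2b took 14.8% ± 4.10, 15.3% ± 1.26 and 26.0% ± 3.47 in the same order. Fcgr1 took 7.80% ± 1.17 and 7.23% ± 2.52 in the sorted groups and 3.24% ± 0.821 in culture, and Fcgr4 took 2.04% ± 0.808, 1.90% ± 0.786 and 1.59% ± 0.309. The makeup of these uncorrected reads thus differed between sham and OHT by less than its spread for each receptor. The 4 receptors together came to 2603 ± 415 ppm in sham, 4220 ± 789 ppm in OHT and 4.33 ± 1.57 ppm in culture, and sham and OHT did not overlap in this sum.

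**Figure D4:**
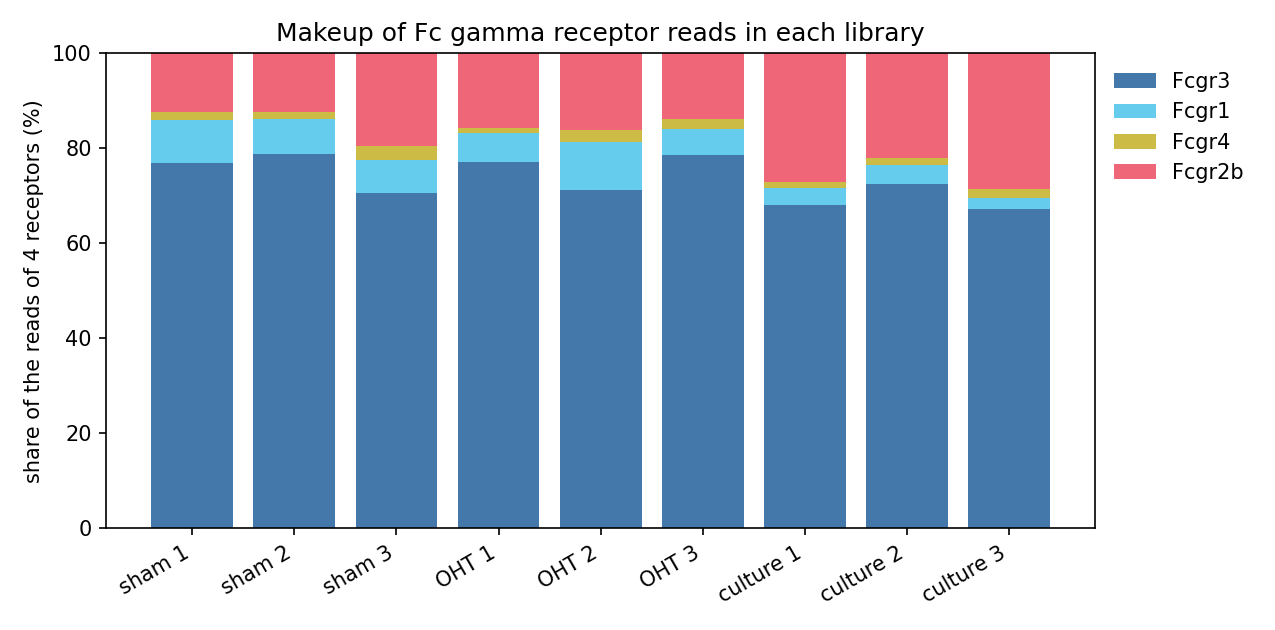
Share of each Fc gamma receptor in the summed reads of Fcgr1, Fcgr2b, Fcgr3 and Fcgr4, as a percentage, for each of the 9 libraries. Fcgr3 is the largest share in every library, and Fcgr2b takes a larger share in the 3 cultures than in any sorted library.

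The common chain had more reads relative to its receptors in OHT than in sham. The log2 ratio of Fcer1g to the summed activating receptors was -0.56, -1.45 and -0.83 in sham and -0.38, -0.44 and -0.17 in OHT. The mean was 0.61 higher in OHT, and the groups did not overlap. In culture the ratio was 0.40, -0.41 and 0.32, on far fewer reads. The ratio was not computed after the correction for GC content and length. With that correction the log2 difference between OHT and sham was 1.02 for Fcer1g, 1.12 for Fcgr1, 0.68 for Fcgr3 and 0.45 for Fcgr4.

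Against the microglia and macrophage list as a whole, Fcer1g had the largest difference of the members. The mean log2 level of the list was 0.54 higher in OHT than in sham. The list did not move as a unit: 10 of its 12 genes were higher in OHT, 6 of them without overlap, and 2 were lower. In mean ppm Tmem119 was at 1746 in sham and 1040 in OHT, and Tyrobp at 616 and 1589. The same mixed list served as the covariate. Fcer1g was -0.09, -0.77 and 0.10 relative to the list in sham and 0.91, 0.29 and 1.05 in OHT, a difference of 1.00 with no overlap. The other Fc gamma receptors differed by less relative to the list: 0.48 for Fcgr2b, 0.40 for Fcgr3, 0.25 for Fcgr4 and 0.24 for Fcgr1, with overlapping groups for each. For Fcgr4 the value was -0.016 without sham replicate 1. Relative to the list Fcgrt differed by -0.45, with overlapping groups. These relative values are descriptions without a test.

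Transcript length moved with the comparison as well. The longest coding transcript of Fcer1g has 683 bases, and the 815 genes tested with a transcript of up to 1000 bases had a median log2 difference of 0.78, against -0.31 for the 4812 genes over 4000 bases. After the correction for GC content and length these medians were 0.34 and 0.16. Among the genes whose pattern over the 6 sorted libraries was most like that of Fcer1g were the ribosomal protein genes Rps15a and Rpl34, each with a root mean square difference of 0.06 on the mean-centred log2 scale. Fcgr3 was at 0.41 from Fcer1g, at rank 412 of the 11475 genes compared, and Fcgr2b at 0.45. The 3 genes most like Fcgr3 were Sat1, which acetylates polyamines, the mitochondrial complex I gene Ndufb5 and the proton pump gene Atp6v1f, at 0.06, 0.07 and 0.07. The 3 most like Fcgrt were Gnpda2, Mafg and Ppp3ca, at 0.04, 0.06 and 0.07.

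The common chain also serves C-type lectin and leukocyte immunoglobulin-like receptors, and all of those measured well enough had a higher mean in OHT. Of 12 such genes 7 passed the filter, 7 were higher in OHT, 3 had an unadjusted limma p under 0.05 and 0 passed after adjustment. Over all genes 5.37% were higher at that p, and 9.26% were higher without overlap. Their median log2 difference was 1.66, against -0.12 for all genes. Clec4n, or Dectin-2, a receptor for fungal mannans, had normalised counts of 560, 998 and 2302 in sham and 12368, 3370 and 4191 in OHT (a difference of 2.36 in log2 with an SE of 0.59 and an adjusted limma p of 0.332). Clec4d had 21.7, 56.3 and 313 in sham and 3175, 314 and 384 in OHT (3.29, SE 1.11, adjusted p = 0.343). Clec4b1 had 8.26, 20.3 and 157 in sham and 721, 216 and 421 in OHT (3.68, SE 1.12, adjusted p = 0.332). The groups did not overlap for these 3 genes, but for Clec4d the highest sham and the lowest OHT value nearly met. Lilra5 differed by 0.82 with overlapping groups.

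The signalling genes below the receptors differed less. Of 16 activating genes 12 had the higher mean in OHT and 4 the lower, with a median log2 difference of 0.25. Of these 16 only Fgr, a Src family kinase, had an unadjusted limma p under 0.05, a share near the 5.37% of all genes. Fgr had normalised counts of 667, 426 and 1112 in sham and 1550, 1597 and 1194 in OHT, with a log2 difference of 1.07 (SE 0.47, adjusted p = 0.417). The most abundant of the list were the adaptors Lat2 and Lcp2, at 0.61 and 0.33, and the kinase Lyn, at 0.42, all with overlapping groups. Of 7 inhibitory genes 4 were higher and 3 lower in OHT, with a median of 0.02. Inpp5d, the SHIP1 phosphatase on which Fcgr2b acts, differed by -0.07, the phosphatase Ptpn6 (SHP-1) by 0.46 and the ubiquitin ligase Cbl by 0.47.

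The NADPH oxidase, which makes superoxide in phagocytes once Fc receptors are engaged, had all 6 genes at a higher mean in OHT, 2 of them with an unadjusted limma p under 0.05, against 5.37% of all genes, and 0 after adjustment. Cybb, the catalytic subunit, had normalised counts of 6438, 6299 and 20781 in sham and 45176, 27028 and 30736 in OHT (a difference of 1.83 in log2 with an SE of 0.46 and an adjusted limma p of 0.332). Cyba, its membrane partner, had 36512, 22257 and 39981 in sham and 137114, 70472 and 75657 in OHT (1.50, SE 0.40, adjusted p = 0.332). Both had separate groups, as did 9.26% of all genes in that direction. Rac2, the small GTPase of the complex, differed by 0.61 with overlapping groups. The median over the 6 genes was 0.62, close to the 0.58 of the 12 microglia and macrophage markers, of which 10 were higher in OHT.

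Fcrl2 was among the abundant genes of the sorted table and near absent in culture. It was at 352, 386 and 499 ppm in sham, 731, 763 and 1221 ppm in OHT and 1.24, 1.16 and 1.94 ppm in culture. All OHT libraries lay above all sham libraries. The log2 difference of its normalised counts was 1.36 (SE 0.33, limma adjusted p = 0.332), and DESeq2 on the recovered reads gave an adjusted p of 0.0288, which passed its threshold, as for 0.375% of all genes in that direction (DESeq2). Of the 10 other Fc receptors and relatives 5 passed the filter, with 2 higher and 3 lower in OHT and a median of -0.10. Fcrl1 had normalised counts of 1132, 953 and 1652 in sham and 1592, 2350 and 3379 in OHT (0.94, SE 0.42, limma adjusted p = 0.421), while Fcrlb and Trim21, the cytosolic antibody receptor, did not exceed 3.28 and 2.09 ppm in any sorted library.

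Set against Slc1a3, the antigen used for capture, Fcgr3 was the more abundant transcript in every sorted library. In ppm Fcer1g and Fcgr2b exceeded Slc1a3 in all of them but sham replicate 2. Fcgr1 exceeded it only in OHT replicates 1 and 2, and Fcgr4 stayed below it throughout. Slc1a3 was at 279, 802 and 399 ppm in sham and 140, 151 and 357 ppm in OHT. In reads, Fcgr3 exceeded Slc1a3 by 8.33-fold, 2.16-fold and 4.58-fold in sham and by 25.8-fold, 15.6-fold and 10.2-fold in OHT, and the groups did not overlap. In culture Fcgr3 was 0.0998, 0.0773 and 0.0830 of Slc1a3. The size of the gap per kb depends on the transcript taken for Slc1a3. In sham, with the longest coding transcripts, Fcgr3 was at 1455 and Slc1a3 at 118 ppm per kb, and with the shortest, of 728 bases for Slc1a3, at 1480 and 677. With the longest transcripts Fcgr2b, Fcgr1 and Fcgr4 had lower sham means per kb than Slc1a3. In OHT their means were higher, at 181, 113 and 61.6 ppm per kb, against 51.9 for Slc1a3. With the shortest transcripts Slc1a3 was at 297 ppm per kb in OHT, below Fcgr2b at 592 but above Fcgr1 and Fcgr4. Slc1a3 itself had a log2 difference of -0.94 (SE 0.43, limma adjusted p = 0.428). Whether cells were held on the column through Fc receptors, or how many were, cannot be read from RNA levels, and it was not tested.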

How the data were processed

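RNA-seq was available for 6 sorted libraries (3 sham, 3 OHT) and 3 cultures. The authors deposited 1 signal value per gene and library. Per the deposited values, each is a gene count divided by 1 factor per library, since dividing by each column's smallest step gave whole reads for 100% of values (tolerance 0.05 reads). For culture replicate 3 the step, 1.007, was so near 1 that values of few reads are a weak check. Its larger values do check it, as for Fcer1g, where 422.063 gave 419 reads. The tables were normalized separately, so levels across them are in ppm, with no test. Per the submitters' processing notes, the build was mm39 and the tools bcl2fastq 2.20, Trim Galore 0.6.6, FastQC 0.11.9 and STAR 2.7.1a. Not given in the sources used here: counting and normalization tools. Printed coordinates are of GRCm38, from GENCODE M21 or RefSeq, and none was converted.

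OHT and sham were compared with limma 3.58.1 (lmFit, eBayes with trend, R 4.3.3) on log2(value + 1). The 14403 genes whose mean over the sorted libraries reached 10 were kept, with Benjamini-Hochberg adjustment over all of them, a threshold of 0.05 and no covariate. This scale understates changes of low genes. The scripts were tested on simulated data. Alternatives were other pseudocounts (0.5 and 10), no filter or a minimum mean of 100, quantile normalization, TMM factors, a GC content and length correction (splines with 4 degrees of freedom, 96.2% of genes with a value), array weights, eBayes without trend, a microglia covariate, a replicate block, leaving out each library, edgeR 4.0.16 and DESeq2 1.42.0 on recovered reads. Library totals, and Fcgr1 alone against Fcgr2b, were added after seeing the data. Lengths are of the longest coding GENCODE M21 transcript. Named genes were the members, Slc1a3, B2m, the 3 most abundant genes of each list and those with an unadjusted p under 0.05, and the 3 genes most similar in pattern to Fcer1g, Fcgr3 and Fcgrt (mean of at least 100). Marker genes, Fcrl2 and the motifs named besides were chosen with their values or sequences in view. The members and lists were chosen with earlier results of these data known. A search for protein motifs was not run. Some genes that this rule names are not reported here.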

Additional observations from a re-analysis of the deposited data

How the results depend on the processing

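With 3 libraries per group the intervals are wide, and few reads limit Fcgr1 and Fcgr4 in culture. The number of genes with an adjusted p under 0.05, 0 with limma and with edgeR (1575 genes at an unadjusted p under 0.05), was 250 with DESeq2 (54 higher and 196 lower in OHT), 2 with the replicate block and 0 to 12 when leaving out 1 library (12 without sham replicate 1 and 7 without sham replicate 3). None of these counts included a listed member, but the count with DESeq2 included Fcrl2 (adjusted p = 0.0288), which may or may not be Fcrls. Same-numbered sham and OHT libraries deviated with correlations of 0.08, -0.02 and -0.05, against -0.07 to 0.10 for differently numbered ones. With 3 libraries per group this cannot decide whether the numbers pair the samples. Fcer1g had an adjusted p of 0.0531 with DESeq2 and 0.0933 with the replicate block. Over 20 alternatives the log2 difference ranged from 0.88 to 1.85 for Fcer1g, 0.20 to 1.12 for Fcgr1, 0.56 to 1.29 for Fcgr2b, 0.46 to 1.21 for Fcgr3 and 0.45 to 1.14 for Fcgr4. Fcgrt was -0.26 with quantile normalization, -0.051 with array weights, -0.31 with the microglia covariate, -0.16 with library totals and -0.19 to 0.24 when leaving out 1 library; the cause was not tested. Leaving out 1 library gave -0.35 to 0.046 for the log2 ratio of activating to inhibitory reads and -0.016 to 0.72 for Fcgr4 relative to the microglia and macrophage list. On the log2 scale, levels over culture moved with a total without the 20 highest genes to 10.95 for Fcgr1 and 1.72 for Fcgrt in sham, and to 11.48 and 1.56 in OHT. Relative to the median gene they moved to 11.56 for Fcgr1, 10.54 for Fcgr3 and 1.67 for Fcgrt in OHT.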

Other observations

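Among the immunoglobulin genes, Ighm was far above the other listed ones in the sorted libraries. Ighm, the heavy chain of IgM, was at 446, 343 and 323 ppm in sham and 260, 413 and 551 ppm in OHT, and it is not listed in the culture table. Igkc, the kappa light chain that most mouse antibodies carry, was at 0.423, 0 and 0.517 ppm in sham and 4.07, 0.131 and 0.955 ppm in OHT. No IgG heavy chain other than Ighg2b was listed, and Ighg2b did not exceed 4.77 ppm and Ighd 8.10 ppm. Ighm differed by 0.34 on the log2 scale between OHT and sham (SE 0.30, limma adjusted p = 0.649).

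Of the B cell markers given here, 2 were near 0 beside Ighm. Cd79a did not exceed 0.978 ppm and Ms4a1 did not exceed 1.74 ppm. Cd79b was at 46.5, 31.4 and 22.9 ppm in sham and 72.4, 38.2 and 48.6 ppm in OHT, and Fcrl1 at 29.0, 24.2 and 38.8 ppm in sham and 24.2, 53.3 and 89.5 ppm in OHT. OHT replicate 3 was the highest library for both Ighm and Fcrl1. These genes were chosen after their values were seen, and the source of the Ighm reads was not tested.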
